A study of Mus musculus with 72 samples.

Results

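The genes described here are 10 cytokine receptor genes of CD8+ T cells, picked by name from the 55487 genes of the count table: Il2ra, Il2rb and Il2rg (the chains of the IL-2 receptor), Il4ra and Il21r (partners of the common gamma chain), Il12rb1 and Il12rb2 (the IL-12 receptor), Il6ra and Il6st (the IL-6 receptor and its signal transducer gp130) and Il18r1 (the ligand-binding chain of the IL-18 receptor). Each gene had 1 row in the table, and all 10 passed the filter on low counts in each comparison. The cells came from spleens of OT-I mice, whose T cells carry a transgenic receptor for the ovalbumin peptide SIINFEKL. RNA was measured in 13 groups of 4 libraries. Stimulated cultures all received SIINFEKL at 10 ng/mL and recombinant human IL-2 at 100 IU/mL, and were sampled at 4, 24 and 48 h with CB-839 at 1 µM (an inhibitor of glutaminase), with DON at 1 µM (a glutamine analog that blocks many glutamine-using enzymes), in RPMI medium without glutamine, or with vehicle in medium with glutamine. One vehicle group stands for both solvents, DMSO and PBS. The last group was unstimulated. Its labels carry a treatment tag for vehicle, but give neither its medium nor whether the cells were cultured. Peptide, added IL-2, culture and medium therefore cannot be told apart in comparisons with that group. The histone marks H3K27ac and H3K27me3 were mapped in the 4 conditions at 48 h by CUT&RUN, in which an antibody directs a nuclease to the mark, and the peaks come as 1 merged list of 2 replicates for each condition and mark.

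Most of these receptors signal through JAK kinases bound to their chains and through STAT factors that enter the nucleus. In a resting CD8+ T cell the beta and gamma chains of the IL-2 receptor give a low response to IL-2, and antigen stimulation adds the alpha chain, which raises the affinity for IL-2. IL-12 and IL-18 support effector differentiation, whereas the IL-6 receptor chains mark resting and memory T cells and are known to be shed or reduced after stimulation. The IL-18 receptor differs from the others in that it signals through MyD88 and IRAK kinases.

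Libraries held 25626587 to 51005409 assigned counts each. The labels call the cells CD8+ T cells but describe no purification from the splenocytes. The 9 T cell and CD8 marker genes summed to 4820 to 5213 CPM (each library's counts scaled to a common total) in unstimulated libraries and to 1586 to 3157 CPM in stimulated ones. The 11 B cell marker genes summed to 1291 to 1568 CPM in unstimulated libraries, to 991 to 2812 CPM at 4 h, to 266 to 605 CPM at 24 h and to 390 to 721 CPM at 48 h. The 13 myeloid and dendritic cell markers reached at most 319 CPM, in a no-glutamine library at 4 h. The 5 CD4 T cell markers summed to 57.6 to 67.5 CPM without glutamine and 215 to 254 CPM with vehicle at 24 h. At 48 h they summed to 192 to 258 and 427 to 485 CPM, and in unstimulated libraries to 42.5 to 48.3 CPM. The sums do not speak for each marker. Of the 4 tested, 1 was higher and 2 lower without glutamine at 24 h, and 2 were higher and 2 lower at 48 h. The part of these markers in the differences without glutamine was not tested. In bulk RNA, fewer cells of a type and less RNA per cell cannot be told apart. The labels do not say whether libraries of a group came from separate animals or cultures, so the p-values speak to variation among these libraries only, part of which may be technical.

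RefSeq promoters on GRCm38.p6 were available for 8 of the genes. Those of Il2ra, Il12rb2 and Il6st are shown because these genes rose most with stimulation at 24 and 48 h (Il2ra, Il12rb2) or with DON (Il6st), and because their promoters lay inside listed H3K27ac peaks with vehicle and without glutamine. They lie at chr2:11642542-11642841 on the plus strand, chr6:67376139-67376438 on the minus strand and chr13:112463820-112464119 on the plus strand. Capitals mark matches, on either strand, to TTCNNNGAA (GAS, the element that STAT dimers bind) or to kappaB, the element of NF-kappaB, searched as GGGA, 4 bases of any kind and CC.
Il2ra: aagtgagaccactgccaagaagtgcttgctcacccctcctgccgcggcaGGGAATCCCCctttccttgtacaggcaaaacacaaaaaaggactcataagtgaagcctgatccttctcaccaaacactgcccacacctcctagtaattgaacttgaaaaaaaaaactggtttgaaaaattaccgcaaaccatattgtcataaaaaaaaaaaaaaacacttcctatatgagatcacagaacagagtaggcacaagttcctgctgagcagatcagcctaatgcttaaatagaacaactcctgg
Il12rb2: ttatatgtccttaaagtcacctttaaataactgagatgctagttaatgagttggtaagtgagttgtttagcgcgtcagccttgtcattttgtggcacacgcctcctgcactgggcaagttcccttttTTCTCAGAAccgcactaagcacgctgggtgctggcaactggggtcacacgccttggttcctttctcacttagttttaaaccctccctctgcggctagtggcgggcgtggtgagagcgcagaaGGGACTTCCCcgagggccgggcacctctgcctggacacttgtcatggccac
Il6st: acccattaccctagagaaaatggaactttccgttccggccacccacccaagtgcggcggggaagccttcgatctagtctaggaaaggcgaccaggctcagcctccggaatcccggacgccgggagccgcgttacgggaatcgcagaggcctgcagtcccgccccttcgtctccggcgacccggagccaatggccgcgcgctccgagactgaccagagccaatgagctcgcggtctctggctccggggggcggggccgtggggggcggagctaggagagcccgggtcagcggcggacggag

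The Il2ra window held 1 kappaB match, at −201 from the RefSeq start. The Il12rb2 window held a GAS match at −123 and a kappaB match at −1 that reads as such on both strands, and no 2 matches of different motifs overlapped. The Il6st window, with 68.3% G and C against 42.7% in Il2ra, held no match. Among the 8 genes, 4 held a kappaB match (Il2ra, Il6ra, Il12rb2 and Il21r), against 20.7% of 32851 RefSeq promoters of the same length. GAS matches stood in 2 of them (Il12rb2 and, at 1 of its 3 promoters, Il18r1), against 8.3% of all promoters. TGANTCA, the AP-1 element, stood in none, against 7.81% of all promoters. The counts are of genes, which had 10 promoters in all, whereas the shares are of promoters, so they are not like for like.

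Vehicle cultures set against unstimulated cells divided the family. Il2ra, Il12rb1 and Il12rb2 rose, Il2rb rose less, and Il6ra, Il6st, Il4ra, Il18r1 and Il21r fell at all 3 times in vehicle cultures (edgeR, adjusted p under 0.05). Il2rg was higher at 4 h and lower at 24 h and 48 h. All 10 genes were thus called at 4, 24 and 48 h, where 74.9%, 84.2% and 83.4% of all genes tested were called. Higher calls were 5, 4 and 4 of the 10 (33.9%, 38.7% and 38.3% of all genes) and lower calls 5, 6 and 6 (41%, 45.5% and 45.1%). From 4 h to 24 h 8 of the 10 changed (74.1% of all genes), and from 24 h to 48 h 7 (32.5%). Over unstimulated, the median log2 fold changes of the 10 at 4, 24 and 48 h were 0.02, −0.63 and −0.82, beside −0.21, −0.18 and −0.16 over all genes. With library totals in place of TMM scaling the calls at 4 h were 3 higher and 5 lower, against 5 and 5, because Il2rb (adjusted p = 0.702) and Il2rg (adjusted p = 0.522) lost theirs. Il2rb also lost its call at 24 h (adjusted p = 0.0999), and Il21r lost its call at 4 h without vehicle replicate C (log2 −0.14) or without the low-count filter (log2 −0.13).

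**Figure D1:**
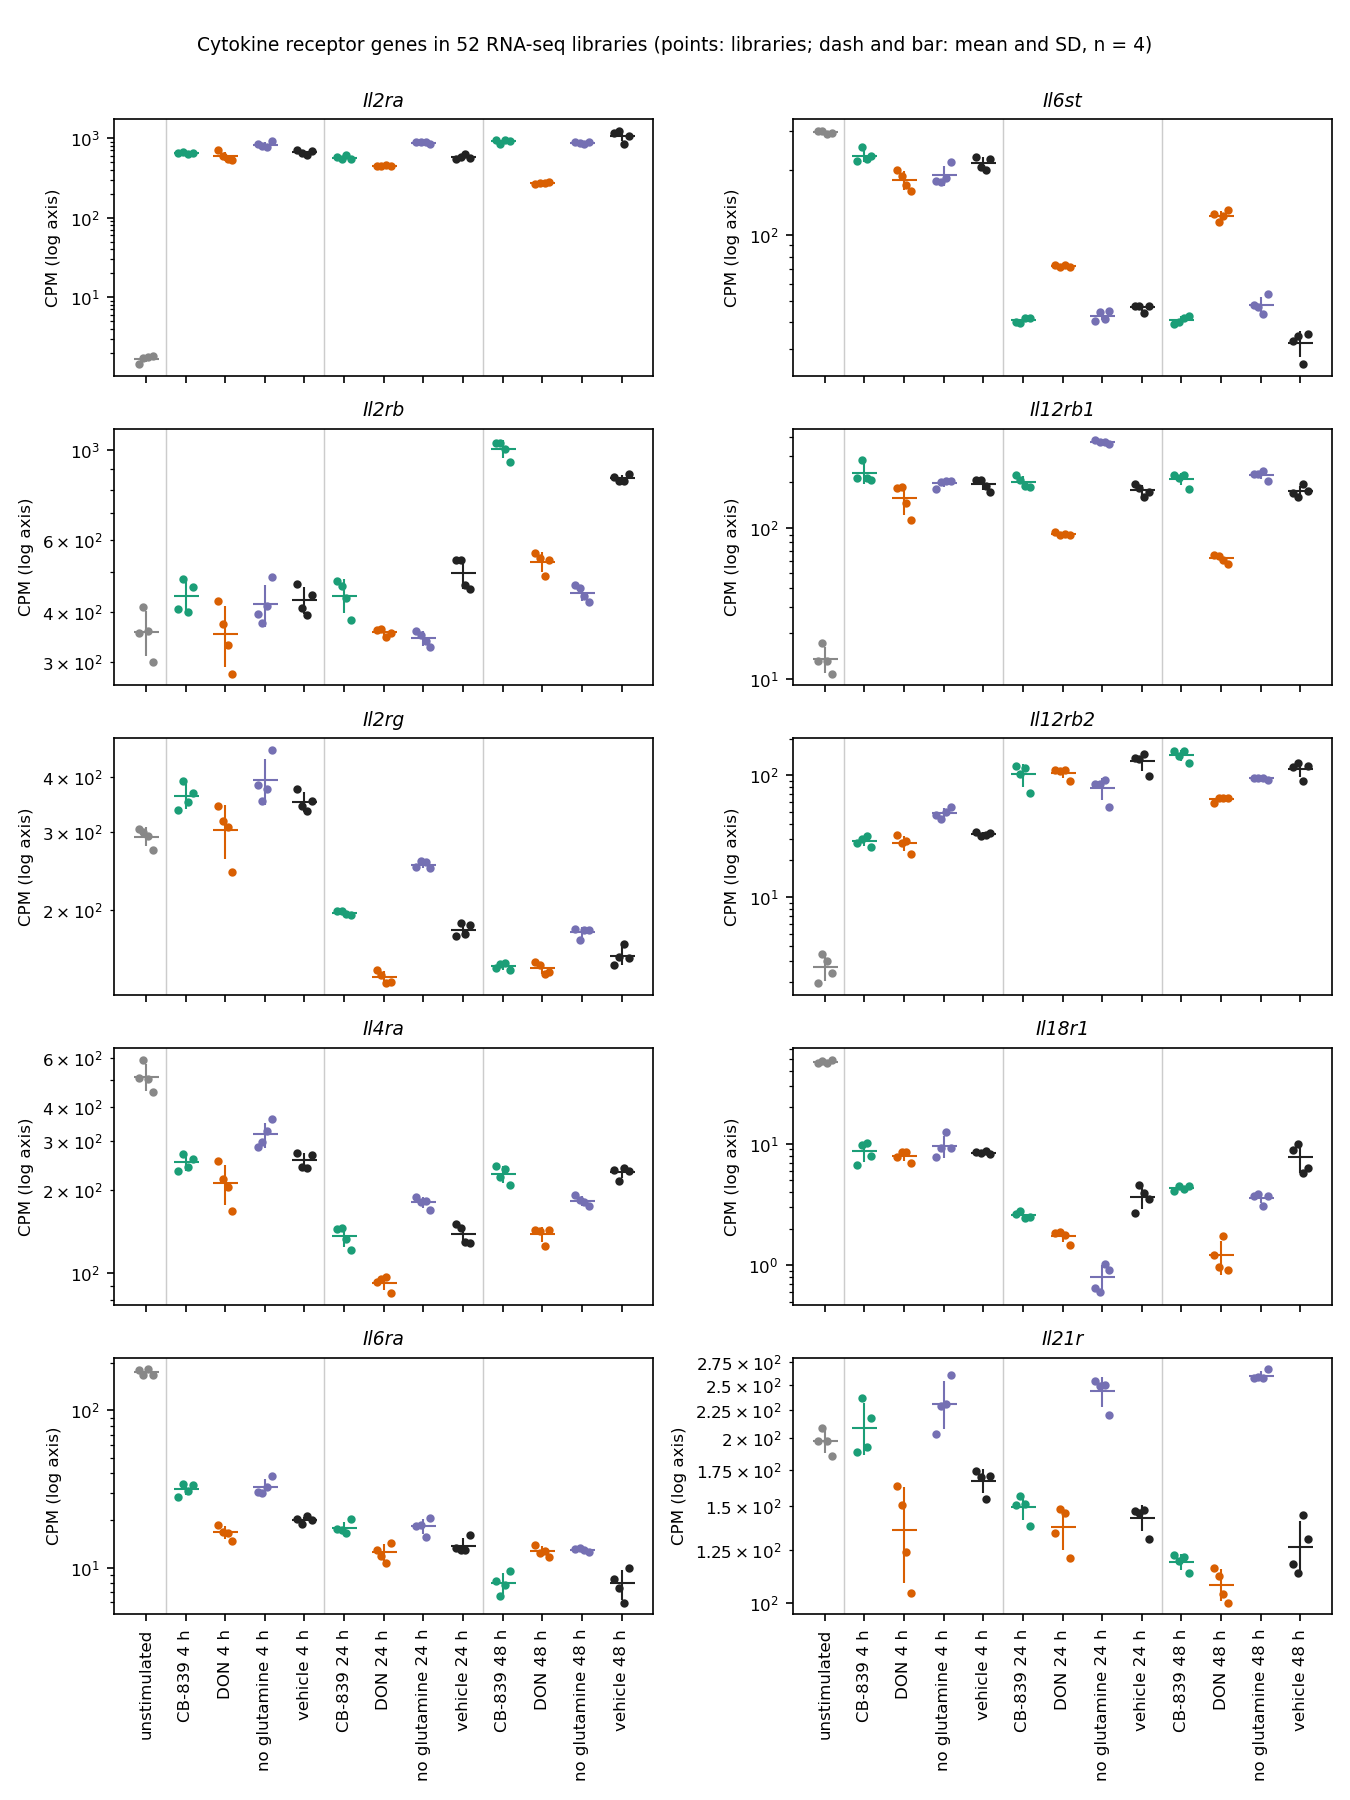
Level of each of the 10 genes in CPM (log axis, scaled separately for each gene) in the 52 libraries, by group from unstimulated to 48 h. Points are libraries, dashes and vertical lines are means and SDs of 4. Il2ra, Il12rb1 and Il12rb2 sit lowest in unstimulated cells, whereas Il4ra, Il6ra, Il6st and Il18r1 sit highest there.

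Il2ra encodes CD25, the alpha chain of the IL-2 receptor. It had 1.44, 1.72, 1.76 and 1.80 CPM in the 4 unstimulated libraries, and vehicle libraries held 708, 641, 610 and 681 CPM at 4 h, 543, 580, 637 and 561 CPM at 24 h and 1147, 1227, 852 and 1075 CPM at 48 h. Each vehicle library was thus far above each unstimulated one, and the log2 fold change was 8.63 ± 0.14 (SE) at 4 h, 8.38 ± 0.13 at 24 h and 9.28 ± 0.14 at 48 h (adjusted p = 7.19e-20, 2.58e-19 and 1.68e-19).

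DON cultures held less Il2ra than vehicle at 24 h and 48 h. At 48 h they had 262, 273, 274 and 280 CPM, against 1147, 1227, 852 and 1075 CPM with vehicle. No DON library reached the lowest vehicle library, and the log2 fold change was −1.88 ± 0.08 (adjusted p = 2.38e-13). At 24 h the values were 449, 441, 457 and 447 CPM with DON, against 543, 580, 637 and 561 CPM with vehicle (log2 −0.30 ± 0.05, adjusted p = 6.74e-05), a call that was lost with library totals (log2 −0.11, adjusted p = 0.0947). The effect of DON differed between the times by −1.59 ± 0.09 on the log2 scale (adjusted p = 1.60e-14).

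Glutamine withdrawal moved Il2ra the other way at first. Cultures without glutamine held 829, 784, 768 and 920 CPM at 4 h, all above the 708, 641, 610 and 681 CPM of vehicle (log2 0.41 ± 0.05, adjusted p = 5.90e-06). At 24 h they held 893, 879, 886 and 830 CPM, again all above vehicle (0.64 ± 0.05, adjusted p = 3.15e-09). At 48 h they held 886, 857, 832 and 903 CPM, which overlapped the vehicle values of 852 to 1227 CPM (−0.27 ± 0.08, adjusted p = 0.00661; 0.114 with library totals).

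The change of that effect on Il2ra from 24 h to 48 h was −0.89 ± 0.09 (adjusted p = 2.59e-09). The level without glutamine gave group means of 825 ± 68.3, 872 ± 28.8 and 869 ± 31.6 CPM (SD, n = 4) at 4, 24 and 48 h, while vehicle means were 660 ± 43.3, 580 ± 40.8 and 1075 ± 161 CPM. CB-839 cultures averaged 654 ± 16.1 CPM at 4 h and 568 ± 32.5 CPM at 24 h, where no call was made. At 24 h the 95% interval of the log2 difference from vehicle ran from −0.14 to 0.07. At 48 h CB-839 cultures had 947, 852, 955 and 913 CPM (−0.23 ± 0.08, adjusted p = 0.0461). That call did not hold with library totals, with the replicate block, with only the 8 libraries compared, or on leaving out any of 7 of the 8 libraries (log2 −0.25 to −0.16 in those).

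Il2rb encodes the beta chain, shared by the IL-2 and IL-15 receptors. It was expressed before stimulation, with 355, 410, 358 and 300 CPM, and reached 861, 842, 838 and 874 CPM with vehicle at 48 h (log2 1.21 ± 0.09 over unstimulated, adjusted p = 1.23e-10). Its highest group was CB-839 at 48 h, with 1044, 1044, 1005 and 936 CPM, above all vehicle libraries (0.23 ± 0.05, adjusted p = 0.00336). DON and no glutamine instead kept it down at that time. DON cultures had 558, 542, 489 and 537 CPM (−0.58 ± 0.05, adjusted p = 4.54e-09), and cultures without glutamine had 466, 459, 437 and 422 CPM (−0.90 ± 0.05, adjusted p = 5.04e-11). The 4 conditions did not overlap at 48 h, and no glutamine was below DON by 0.32 ± 0.05 on the log2 scale (adjusted p = 1.34e-05). At 24 h Il2rb was also lower with DON (−0.42 ± 0.07, adjusted p = 2.25e-05) and without glutamine (−0.49 ± 0.07, adjusted p = 2.71e-06).

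Il2rg encodes the common gamma chain, which the receptors for IL-2, IL-4, IL-7, IL-9, IL-15 and IL-21 share. It held 306, 301, 294 and 273 CPM in unstimulated cells, rose to 377, 344, 335 and 353 CPM with vehicle at 4 h, and was down to 151, 156, 168 and 156 CPM at 48 h (log2 −0.95 ± 0.06, adjusted p = 1.06e-11). Cultures without glutamine held more of it at each time, with 250, 258, 257 and 250 CPM at 24 h, against 175, 187, 176 and 185 CPM with vehicle (0.54 ± 0.04, adjusted p = 1.50e-09). At 4 h Il2rg overlapped between these conditions, at 352 to 461 CPM without glutamine and 335 to 377 CPM with vehicle. DON lowered it at 24 h, to 147, 143, 137 and 138 CPM (−0.29 ± 0.04, adjusted p = 9.17e-06; 0.0519 with library totals). At 48 h DON libraries (143 to 152 CPM) overlapped vehicle libraries (151 to 168 CPM), and the log2 difference had a 95% interval from −0.08 to 0.10; with library totals it was called higher (log2 0.20, adjusted p = 0.00048). Of its exon bases 30.5% lie in the gene model of Gm20489 as well, whose group means were at most 0.0718 CPM. Counting used no strand option, so reads of the shared bases cannot be assigned and the Il2rg level is uncertain to that extent.

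Per kilobase of exon, the order of the 3 IL-2 receptor chains changed with time and condition. Il2rg was divided by all its exon bases, the 30.5% shared with Gm20489 included, so its values carry the uncertainty given above. Unstimulated cells held 0.294 ± 0.029 CPM per kilobase of Il2ra, 83.0 ± 10.5 of Il2rb and 123 ± 6.01 of Il2rg. With vehicle at 48 h the levels were 188 ± 28.3 for Il2ra, 199 ± 3.90 for Il2rb and 66.1 ± 3.02 for Il2rg. DON cultures at 48 h had 47.7 ± 1.28 of Il2ra, 124 ± 7.03 of Il2rb and 61.8 ± 1.78 of Il2rg, so Il2ra was the lowest of the 3 there, whereas without glutamine it was the highest, at 152 ± 5.53 beside 104 ± 4.78 for Il2rb.

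**Figure D2:**
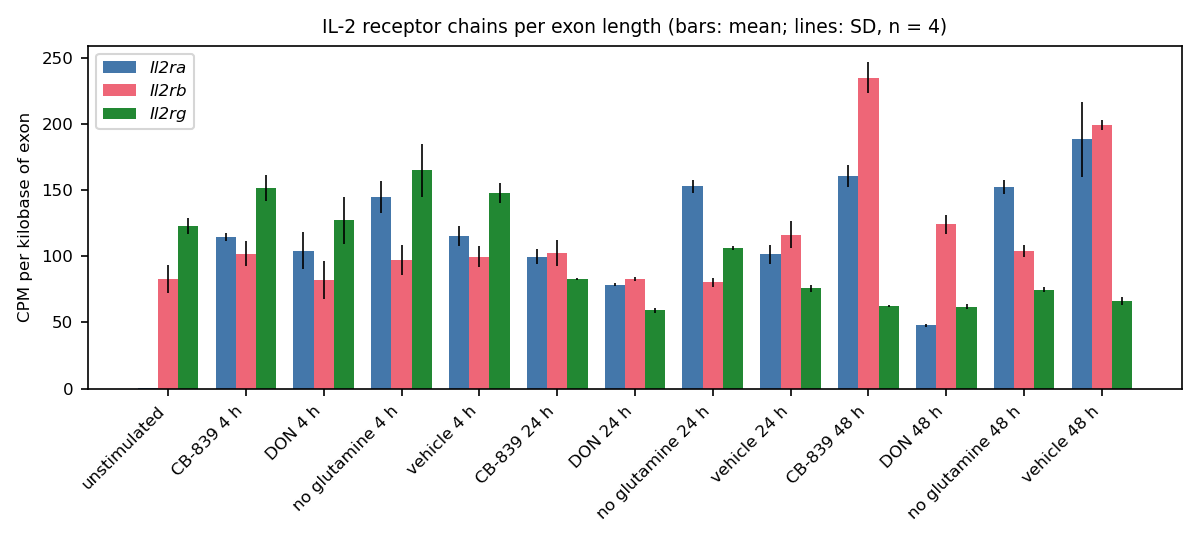
Mean level of Il2ra, Il2rb and Il2rg in CPM per kilobase of exon for each group; lines are SDs of 4 libraries and the axis starts at 0. Il2ra is near 0 in unstimulated cells, and at 48 h it is 47.7 with DON, 152 without glutamine and 188 with vehicle.

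Il4ra encodes the alpha chain of the IL-4 and IL-13 receptors, and Il21r the receptor chain for IL-21; they lie beside each other on chromosome 7. Il4ra was highest in unstimulated cells, with 508, 593, 503 and 454 CPM, and vehicle cultures had 151, 146, 130 and 129 CPM at 24 h and 237, 216, 241 and 234 CPM at 48 h. It fell by 1.94 ± 0.08 at 24 h and by 1.20 ± 0.08 at 48 h on the log2 scale (adjusted p = 4.41e-14 and 5.58e-11). Without glutamine it was above vehicle at 4 h (287, 297, 326 and 361 CPM, against 273, 242, 241 and 269 CPM) and at 24 h (189, 182, 183 and 169 CPM, against 151, 146, 130 and 129 CPM). At 48 h it was below vehicle, with 192, 184, 181 and 175 CPM (log2 −0.30 ± 0.06, adjusted p = 0.000169), and the change between 24 h and 48 h was −0.72 ± 0.09 (adjusted p = 8.80e-08). DON lowered it at 24 h (−0.52 ± 0.07, adjusted p = 1.60e-06) and at 48 h (143, 142, 126 and 144 CPM; −0.64 ± 0.06, adjusted p = 7.29e-09).

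Glutamine withdrawal raised Il21r at every time, as it did Il2rg and Il6ra. Cultures without glutamine held 203, 228, 231 and 260 CPM at 4 h, 254, 249, 250 and 220 CPM at 24 h and 257, 258, 257 and 267 CPM at 48 h, against 174, 170, 155 and 170 CPM, 147, 146, 148 and 131 CPM, and 118, 113, 145 and 131 CPM with vehicle. No library without glutamine overlapped a vehicle library of its time. The log2 fold changes were 0.55 ± 0.07, 0.81 ± 0.07 and 1.08 ± 0.07 (adjusted p = 2.16e-06, 1.82e-09 and 3.72e-10). Those without glutamine also lay above DON at 24 h by 0.80 ± 0.07 (adjusted p = 2.04e-09) and at 48 h by 1.20 ± 0.07 (adjusted p = 2.20e-11). DON gave no call for Il21r at any time with TMM scaling and all libraries, with a 95% interval from −0.12 to 0.14 at 24 h and from −0.26 to 0.01 at 48 h. It was called higher at 24 h with library totals (log2 0.20, adjusted p = 0.0123) and lower at 48 h without vehicle replicate B (log2 −0.17, adjusted p = 0.0241).

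Il12rb1 encodes the chain that binds IL-12 and IL-23, and Il12rb2 the chain that gives IL-12 signaling its specificity. Il12rb1 had 13.2, 17.2, 13.1 and 10.8 CPM in unstimulated libraries, and the log2 fold change with vehicle was 3.84 ± 0.12, 3.65 ± 0.12 and 3.63 ± 0.12 at 4, 24 and 48 h (adjusted p = 4.56e-16, 8.86e-16 and 1.16e-15). At 24 h it had the largest difference of the 10 genes between glutamine withdrawal and DON (log2 2.00 ± 0.06, adjusted p = 3.55e-15). DON libraries held 94.1, 88.9, 90.6 and 89.6 CPM, those without glutamine 379, 371, 367 and 358 CPM, and vehicle libraries 194, 182, 161 and 173 CPM. The 3 conditions did not overlap. Against vehicle, DON lowered it by 0.90 ± 0.06 (log2 −0.90, adjusted p = 6.43e-10) and glutamine withdrawal raised it (log2 1.10 ± 0.06, adjusted p = 1.13e-11).

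At 48 h Il12rb1 held 65.9, 65.4, 61.5 and 57.7 CPM with DON and 228, 227, 237 and 205 CPM without glutamine, against 170, 160, 194 and 175 CPM with vehicle. The difference with DON was −1.37 ± 0.08 (adjusted p = 1.34e-11), and that without glutamine 0.40 ± 0.08 (adjusted p = 0.000180). CB-839 cultures at 48 h had 223, 214, 225 and 181 CPM (0.27 ± 0.08, adjusted p = 0.0226), which overlapped vehicle, and the call was lost on leaving out CB-839 replicate A, B or C or vehicle replicate A (log2 0.24 to 0.26), and with only the 8 libraries compared (adjusted p = 0.106).

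Il12rb2 had 1.95, 3.42, 2.97 and 2.37 CPM in unstimulated libraries. With vehicle it reached 34.4, 31.8, 32.2 and 33.7 CPM at 4 h and 137, 135, 149 and 98.3 CPM at 24 h (log2 3.63 ± 0.16 and 5.55 ± 0.17, adjusted p = 9.73e-14 and 4.44e-16). It was still rising between these times (1.92 ± 0.14, adjusted p = 2.64e-10). Without glutamine it was ahead at 4 h, with 47.3, 43.9, 50.003 and 54.5 CPM (0.65 ± 0.07, adjusted p = 2.81e-07), and behind at 24 h, with 84.6, 84.4, 90.9 and 54.8 CPM (−0.67 ± 0.17, adjusted p = 0.00212).

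At 48 h Il12rb2 had 58.8, 65.0, 65.3 and 65.3 CPM with DON, all below the vehicle libraries at 116, 126, 89.7 and 118 CPM (−0.72 ± 0.08, adjusted p = 3.22e-07), while CB-839 libraries held 157, 143, 159 and 126 CPM (0.37 ± 0.08, adjusted p = 0.00493; 0.0551 with only the 8 libraries compared). The smaller values without glutamine at 48 h (95.5, 95.7, 94.4 and 92.2 CPM) overlapped vehicle, and the call (−0.21 ± 0.08, adjusted p = 0.0374) was lost on leaving out any of 7 of the 8 libraries, with library totals, with the replicate block and with only the 8 libraries compared. Of the exon bases of Il12rb2, 40% lie in the gene model of Serbp1 too, which had 667 ± 26.5 CPM in unstimulated cells and group means of 1204 to 2508 CPM after stimulation. Counting used no strand option, so reads of the shared bases cannot be assigned and the Il12rb2 values are uncertain to that extent.

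Il6ra encodes the IL-6-binding chain, and Il6st gp130, the signal transducer that IL-6, IL-11, IL-27 and LIF receptors share. Il6ra had 181, 169, 182 and 169 CPM in unstimulated libraries, and vehicle libraries had 20.4, 18.8, 21.2 and 19.98 CPM at 4 h, 13.3, 12.9, 12.9 and 16.1 CPM at 24 h and 8.49, 7.36, 5.97 and 9.99 CPM at 48 h. Its log2 fold change was −3.12 ± 0.11 by 4 h and −4.51 ± 0.12 at 48 h (adjusted p = 3.30e-15 and 9.42e-17), the largest fall of the 10 genes at 48 h. At 4 h both CB-839 (28.1, 33.8, 30.6 and 33.6 CPM; 0.63 ± 0.07, adjusted p = 8.69e-06) and glutamine withdrawal (30.5, 29.6, 32.3 and 38.1 CPM; 0.78 ± 0.07, adjusted p = 4.07e-08) placed it above vehicle, with no overlap. B cell markers at that time summed to 1939 to 2467 CPM with CB-839, 1373 to 2812 CPM without glutamine and 1704 to 2390 CPM with vehicle. Of the 11 B cell markers 0 were called in either condition, with a median log2 of 1.10 with CB-839 and 1.495 without glutamine. Myeloid and dendritic markers summed to 21.2 to 127, 18.3 to 319 and 17.6 to 44.1 CPM. Of 11 tested, 1 was higher with CB-839 and 4 without glutamine (5.85% and 16.2% of all genes), and 0 were lower. The part of both marker sets in the Il6ra difference was not tested.

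At 48 h Il6ra had 14.0, 12.4, 12.8 and 11.7 CPM with DON and 13.1, 13.4, 12.975 and 12.6 CPM without glutamine. Both sets lay above all vehicle libraries (0.78 ± 0.13 and 0.75 ± 0.13, adjusted p = 1.92e-05 and 5.86e-05). CB-839 libraries at 48 h held 8.17, 6.59, 7.80 and 9.47 CPM and overlapped vehicle throughout.

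Il6st fell more slowly than Il6ra. Unstimulated libraries held 302, 300, 292 and 295 CPM, and vehicle libraries 230, 205, 199 and 224 CPM at 4 h, 47.6, 47.6, 44.1 and 47.6 CPM at 24 h and 32.7, 34.7, 25.7 and 35.2 CPM at 48 h. The log2 fold change over unstimulated was −0.46 ± 0.08, −2.72 ± 0.08 and −3.26 ± 0.09 (adjusted p = 2.86e-05, 5.07e-16 and 9.11e-17).

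With DON the fall of Il6st was smaller at 24 h and smaller still at 48 h. DON libraries held 73.4, 71.5, 73.1 and 71.7 CPM at 24 h and 125, 115, 122 and 130 CPM at 48 h. At both times they lay above all libraries of the other 3 conditions. Against vehicle the differences were 0.70 ± 0.05 at 24 h and 2.05 ± 0.08 at 48 h (adjusted p = 6.84e-10 and 1.36e-13), and the gap between the times was 1.33 ± 0.09 (adjusted p = 8.25e-13). Myeloid and dendritic markers at 48 h summed to 21.7 to 23.3 CPM with DON and 2.32 to 3.63 CPM with vehicle, and B cell markers to 650 to 721 and 535 to 580 CPM. The B cell sums understate the shift of single markers. All 5 B cell markers tested were higher with DON (median log2 2.73), as were all 3 myeloid and dendritic markers tested (median log2 2.89). Of all genes, 35.6% were higher. The part of both marker sets in the DON differences at 48 h was not tested.

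Il6st was also above vehicle at 48 h without glutamine (47.7, 46.7, 43.5 and 53.6 CPM; 0.62 ± 0.08, adjusted p = 3.66e-06) and with CB-839 (39.1, 40.03, 41.8 and 42.9 CPM; 0.35 ± 0.08, adjusted p = 0.00720; 0.0535 with only the 8 libraries compared). At 24 h CB-839 libraries lay below vehicle (40.3, 39.8, 41.6 and 42.02 CPM, against 47.6, 47.6, 44.1 and 47.6 CPM), with a log2 difference of −0.20 ± 0.05 (adjusted p = 0.0275) that lost its call on leaving out any of 6 of the 8 libraries (−0.21 to −0.19). The CB-839 effect differed between 24 h and 48 h by 0.56 ± 0.09 (adjusted p = 0.000411).

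Il18r1 fell after stimulation and partly came back with vehicle. It had 46.1, 48.2, 45.8 and 49.3 CPM in unstimulated libraries, and vehicle libraries had 8.47, 8.32, 8.79 and 8.23 CPM at 4 h, 2.70, 4.59, 3.92 and 3.49 CPM at 24 h and 8.85, 10.0, 5.78 and 6.29 CPM at 48 h. With vehicle it thus rose again between 24 h and 48 h (log2 1.08 ± 0.16, adjusted p = 2.59e-05), and the level at 48 h was below unstimulated by 2.66 on the same scale (log2 −2.66 ± 0.15, adjusted p = 2.66e-12).

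All 3 ways of limiting glutamine use held Il18r1 below vehicle at 48 h. Its level was 4.11, 4.46, 4.28 and 4.49 CPM with CB-839, 1.22, 0.966, 1.74 and 0.912 CPM with DON and 3.72, 3.88, 3.09 and 3.69 CPM without glutamine, and none of these libraries reached the lowest vehicle library. The log2 fold changes were −0.84 ± 0.17, −2.59 ± 0.19 and −1.07 ± 0.17 (adjusted p = 0.00222, 7.16e-10 and 3.19e-05). At 24 h the lowest group was the one without glutamine, with 0.647, 0.598, 1.03 and 0.917 CPM (−2.14 ± 0.18, adjusted p = 5.12e-09), below DON with 1.83, 1.87, 1.79 and 1.46 CPM by 1.14 ± 0.19 (log2 −1.14, adjusted p = 3.85e-05). The order of these conditions was the other way round at 48 h, where no glutamine exceeded DON by 1.52 ± 0.20 (adjusted p = 1.90e-06). Il18rap, the accessory chain of the same receptor, was at 1.55 CPM with DON and 9.32 CPM with vehicle at 48 h (log2 −2.48 ± 0.15, adjusted p = 4.67e-11), and at 24 h at 3.15 CPM without glutamine and 10.2 CPM with vehicle (−1.65 ± 0.12, adjusted p = 6.43e-10).

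**Figure D3:**
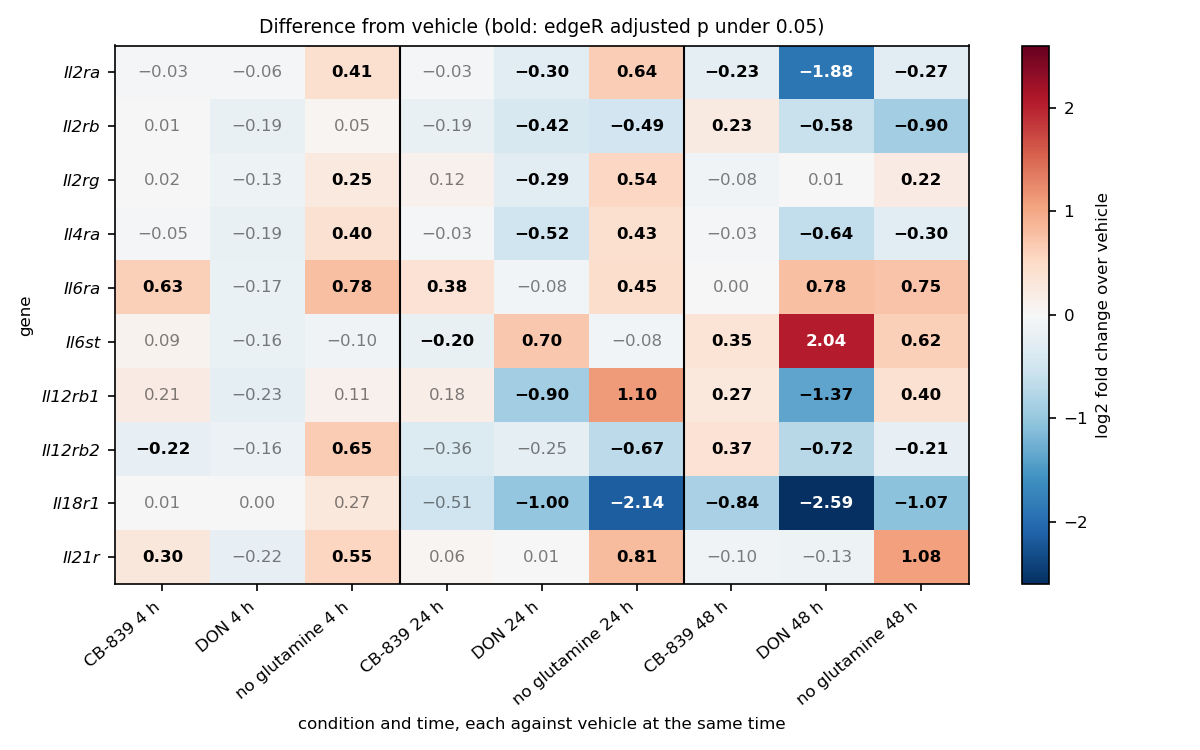
Log2 fold change over vehicle of the same time for each gene (down) and each condition at 4, 24 and 48 h (across); red is higher and blue lower than vehicle, and bold values have an edgeR adjusted p under 0.05. DON at 48 h shows the widest spread, with −2.59 for Il18r1 and 2.05 for Il6st.

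Counted over the family, the treatments gave few calls against vehicle at 4 h except without glutamine. Libraries of a group also varied more in that fit (common coefficient of variation 0.173) than at 24 h (0.0842) or 48 h (0.093). Fewer calls at 4 h therefore need not mean smaller differences. With DON at 4 h the median log2 difference of the 10 was −0.17, beside 0.01 over all genes. CB-839 gave 2 calls above and 1 below vehicle (12.5% of all genes called, 5.85% higher and 6.64% lower; 2 and 0 with library totals). The lower call, Il12rb2 (27.6, 30.1, 31.6 and 25.6 CPM with CB-839, against 34.4, 31.8, 32.2 and 33.7 CPM), was lost on leaving out any of 7 of the 8 libraries, with library totals and without the low-count filter. DON gave 0 (0% called), and glutamine withdrawal gave 6 above and 0 below (37.6% called, 16.2% higher and 21.4% lower; 6 and 1 with library totals). DON at 4 h had 1862 genes at an unadjusted p under 0.05, and DESeq2 called 27 genes but none of these 10. At 24 h CB-839 gave 1 above and 1 below (4.95% called, 2.47% higher and 2.48% lower), DON 1 and 6 (58% called, 28.1% higher and 29.9% lower; 2 and 4 with library totals) and glutamine withdrawal 6 and 3 (58.9% called, 30% higher and 28.9% lower). At 48 h the counts were 4 above and 2 below with CB-839 (15.2% called, 8.5% higher and 6.73% lower; 4 and 1 with library totals), 2 and 6 with DON (71.2% called, 35.6% in each direction; 3 and 6 with library totals) and 5 and 5 without glutamine (54.3% called, 28% higher and 26.3% lower; 5 and 3 with library totals). Library totals raised the share of all calls that were higher to 70.5%, against 48.4%, with DON at 24 h, to 61.4%, against 51.01%, without glutamine at 24 h, to 62.8%, against 49.99%, with DON at 48 h and to 63.55%, against 51.6%, without glutamine at 48 h. For the 10 genes the median log2 difference was −0.61 with DON at 48 h, beside 0.00 over all genes tested, and 0.33 without glutamine at 4 h, beside 0.05.

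Replicate letters paired CB-839 with vehicle libraries at 4 h and 24 h (same-letter deviations correlated in each pair), and with the letter as a block more calls were made there. At 24 h the block gave 6 calls instead of 2, adding Il2rb (−0.19, adjusted p = 0.0109), Il12rb1 (0.18, adjusted p = 0.0178), Il12rb2 (−0.36, adjusted p = 0.000190) and Il18r1 (−0.50, adjusted p = 0.0379). At 4 h it added Il12rb1 (0.21, adjusted p = 0.0156). Without the block the calls at 24 h were Il6ra (17.7, 17.3, 16.6 and 20.2 CPM with CB-839, against 13.3, 12.9, 12.9 and 16.1 CPM; 0.38 ± 0.10, adjusted p = 0.0372) and Il6st, and both were lost with only the 8 libraries compared, and that of Il6ra on leaving out any of 7 of the 8.

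The 3 conditions were also set against each other. At 4, 24 and 48 h, DON differed from CB-839 in 5, 8 and 8 of the 10 genes (16%, 59.7% and 70.4% of all genes called), glutamine withdrawal from CB-839 in 6, 8 and 7 (31.3%, 58% and 51%), and glutamine withdrawal from DON in 8, 9 and 9 (36.1%, 58.9% and 68.6%). In the last comparison at 48 h, 7 genes were higher without glutamine than with DON (34.6% of all genes), led by Il12rb1 (1.78 ± 0.08, adjusted p = 4.85e-13), Il2ra (1.61 ± 0.08, adjusted p = 2.10e-12) and Il18r1, and 2 were lower (34.1% of all genes), Il6st (−1.43 ± 0.08, adjusted p = 1.73e-11) and Il2rb. Il6ra gave no call there, with 13.1, 13.4, 12.975 and 12.6 CPM without glutamine and 14.0, 12.4, 12.8 and 11.7 CPM with DON.

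Effects changed between 24 h and 48 h in 3 of the 10 genes with CB-839 (3.5% of all genes called), in 7 with DON (40.3% called) and in 8 without glutamine (29.1% called). Il2rb, Il6st and Il12rb2 made up the CB-839 calls, each higher relative to vehicle at 48 h than at 24 h. For Il12rb2 the change was 0.75 ± 0.20 (adjusted p = 0.0266), and it lost its call on leaving out any of 5 libraries or without the low-count filter. With DON, Il2ra (−1.59), Il18r1 (−1.60 ± 0.26, adjusted p = 7.66e-06), Il12rb1 (−0.49 ± 0.10, adjusted p = 0.000239) and Il12rb2 (lost on leaving out any of 13 libraries, with RLE scaling, with library totals and without the low-count filter) moved down, and Il6st, Il6ra (0.84 ± 0.17, adjusted p = 0.000127) and Il2rg (0.28 ± 0.06, adjusted p = 0.000253) moved up. Without glutamine, Il18r1 (1.08 ± 0.26, adjusted p = 0.00155) and Il6st (0.70 ± 0.09, adjusted p = 3.90e-07) moved up most, and Il2ra, Il4ra and Il12rb1 (−0.69 ± 0.10, adjusted p = 2.04e-06) moved down most.

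**Figure D4:**
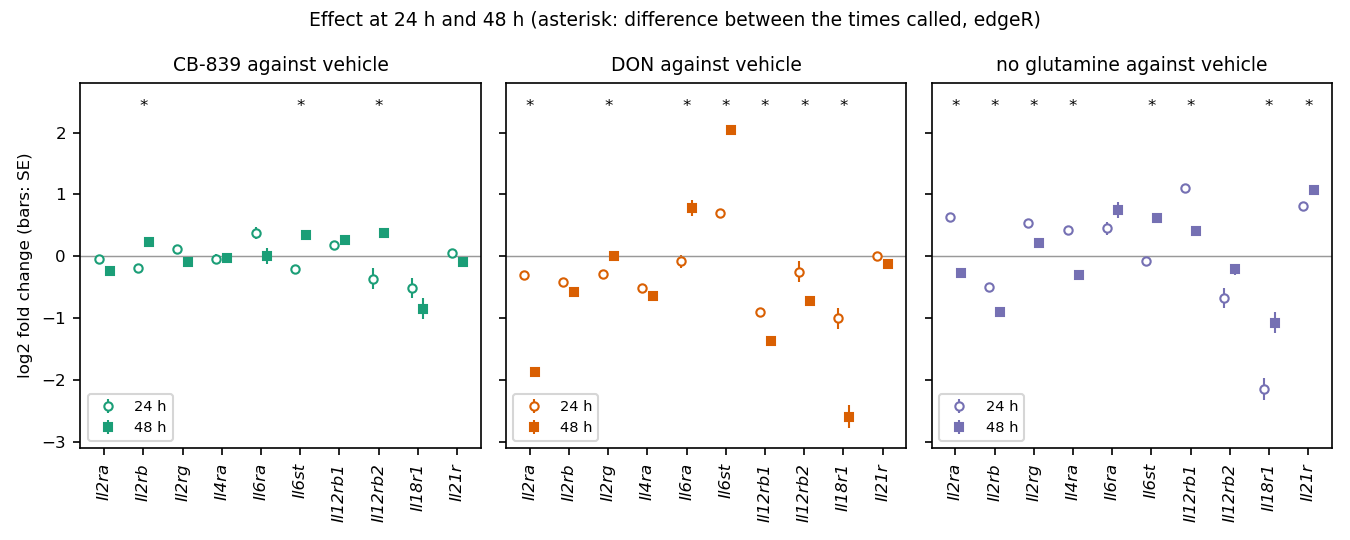
Log2 fold change over vehicle at 24 h (open circles) and 48 h (filled squares) for each gene, in 1 panel for each condition, with SE bars; asterisks mark genes whose effect differed between the times (edgeR adjusted p under 0.05). With DON the 48 h values of Il2ra (−1.88) and Il6st (2.05) lie far from those at 24 h (−0.30 and 0.70).

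The genes around the receptors were read from lists chosen for their roles. No list was tested as a set against the share of all genes called. Of 25 other cytokine receptor genes tested, 7 rose and 13 fell at 4 h of vehicle culture (33.9% and 41% of all genes). At 48 h 2 rose and 19 fell (38.3% and 45.1% of all genes), with a median log2 of −1.43. Those that fell included Il27ra (72.3 CPM with vehicle and 308 CPM unstimulated), Tgfbr2 (35.5 and 262 CPM), Ifngr2 (4.65 and 78.7 CPM) and Ifngr1 (50.7 and 303 CPM). Il15ra, the IL-15-binding chain, rose at 4 h (69.0 and 6.37 CPM; log2 3.44 ± 0.10, adjusted p = 2.65e-16). At 48 h 9 of the 22 tested were higher and 2 lower with CB-839 (8.5% and 6.73% of all genes). The counts were 11 and 6 with DON (35.6% in each direction), and 13 and 4 without glutamine (28% and 26.3%). Without glutamine Il15ra was at 34.6 CPM against 16.1 CPM with vehicle (1.14 ± 0.07, adjusted p = 2.71e-10), and Ifngr2 at 12.8 CPM against 4.65 CPM (1.495 ± 0.09, adjusted p = 1.30e-10).

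Among the ligands of the 10 receptors, 10 of 13 tested rose and none fell at 4 h of vehicle culture (33.9% and 41% of all genes). Il2, the growth factor of activated T cells, stood at 131 CPM with vehicle and 0.0881 CPM unstimulated (log2 10.52 ± 0.23, adjusted p = 4.03e-18), and Lif at 229 and 2.06 CPM (6.81 ± 0.25, adjusted p = 4.60e-14). At 48 h, of 7 tested, 1 was higher and 4 lower with CB-839 (15.2% of all genes called). The counts were 2 and 3 with DON (71.2% called) and 2 and 3 without glutamine (54.3% called). Lif, whose receptor uses gp130, was at 20.6 CPM with DON and 164 CPM with vehicle (−2.88 ± 0.08, adjusted p = 1.77e-15), and Il23a, a subunit of the IL-23 that Il12rb1 binds, at 10.2 CPM without glutamine and 0.471 CPM with vehicle (4.48 ± 0.19, adjusted p = 1.99e-12).

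The 4 JAK kinase genes all fell by 48 h of vehicle culture, Jak1 most (261 CPM with vehicle and 1015 CPM unstimulated; −2.01 ± 0.08, adjusted p = 2.86e-14). Of all genes, 45.1% fell by then. Against vehicle at 48 h, 54.3% of all genes were called without glutamine, 71.2% with DON and 15.2% with CB-839. Of the 4 JAK genes, 3 were higher and 0 lower without glutamine at 48 h, 1 and 1 with DON and 1 and 0 with CB-839. Jak2 was above vehicle with DON (102 and 59.5 CPM; 0.88 ± 0.09, adjusted p = 8.99e-08) and without glutamine (141 and 59.5 CPM; 1.29 ± 0.09, adjusted p = 1.84e-09). Of 7 STAT genes 3 were higher with CB-839, 2 higher and 4 lower with DON, and 4 higher and 2 lower without glutamine. Stat5a, which encodes one of the STAT factors that carry the IL-2 signal, was at 77.0 CPM with DON and 132 CPM with vehicle (−0.67 ± 0.05, adjusted p = 1.79e-10). It was at 188 CPM without glutamine (0.56 ± 0.04, adjusted p = 7.66e-09). Stat4, the factor of IL-12 signaling, was lower in both (−0.42 ± 0.10 with DON, adjusted p = 0.000612; −0.89 ± 0.10 without glutamine, adjusted p = 3.22e-07).

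Feedback inhibitors and cytokine-induced genes were also read at 48 h, where 15.2% of all genes were called with CB-839, 71.2% with DON and 54.3% without glutamine. Of 11 feedback inhibitors, 1 was higher and 2 lower with CB-839, 4 and 6 with DON and 4 and 2 without glutamine. Cish, an inhibitor that STAT5 induces, was at 45.8 CPM with DON and 117 CPM with vehicle (−1.25 ± 0.05, adjusted p = 1.75e-13) and at 173 CPM without glutamine (0.60 ± 0.05, adjusted p = 1.15e-08). Of 13 cytokine-induced genes, 2 were higher and 2 lower with CB-839, 2 and 8 with DON and 7 and 5 without glutamine. With DON, Tbx21 (the T-bet factor; 17.5 and 119 CPM with vehicle) fell by 2.65 ± 0.10 on the log2 scale and Irf4 (143 and 502 CPM) fell by 1.71 ± 0.07 (adjusted p = 9.53e-14 for both). Prdm1, encoding Blimp-1, was low in both, at 0.186 CPM with DON, 0.399 CPM without glutamine and 4.46 CPM with vehicle. In the IL-18 pathway, of 7 genes, 0 were called with CB-839, 1 was higher and 2 lower with DON and 2 and 3 without glutamine, and Myd88, its adaptor, was lower with DON (40.4 and 76.3 CPM; −0.81 ± 0.05, adjusted p = 6.21e-11) and without glutamine (58.3 and 76.3 CPM; −0.35 ± 0.05, adjusted p = 1.12e-05).

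Over the 13 group means, the gene with the pattern most like that of Il2ra was Crls1 (Pearson r = 0.98 on log2 CPM, among 8636 genes), followed by Bcat1, Anp32b-ps1 and Anp32b. For the others it was 1190002N15Rik for Il2rb (0.956), Cd84 for Il2rg (0.981), Elmsan1 for Il4ra (0.961), Pnrc1 for Il6ra (0.969), Zdhhc20 for Il6st (0.975), Prep for Il12rb1 (0.983), Mthfd1l for Il12rb2 (0.984), Zfp407 for Il18r1 (0.936) and Zbtb44 for Il21r (0.938). These correlations rest on 13 points that share the stimulation course and are a description. Ordered by group mean, neighbouring groups overlapped in 7 to 10 of 12 steps for each gene, and the highest mean exceeded the lowest by 640-fold for Il2ra but by 2.41-fold for Il21r.

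H3K27ac, a mark of active promoters and enhancers, was read at 48 h from the authors' merged peak lists. The lists differ greatly in length, with 117 peaks for CB-839, 33 for DON, 6687 without glutamine and 9681 with vehicle, so a peak absent from a short list shows no loss at that gene. Within 1000 bases of the annotated start, a peak stood at 0 of the 10 genes in the CB-839 list (0.643% of genes tested at 48 h), at 0 in the DON list (0.21%), at 7 in the list without glutamine (28.6%) and at 8 in the vehicle list (42%). Il18r1 had none in any list. Il12rb1 had a promoter peak without glutamine but not with vehicle, and Il2rb and Il6ra with vehicle but not without glutamine. Peaks had to overlap the window by at least 1 base; with at least 50% of the peak inside it, the counts were 0 without glutamine and 1 with vehicle.

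The broadest peak was at Il2ra. It spanned 17382 bases without glutamine (chr2:11640710-11658091, rank 57 of 6687 by the authors' signal) and 16178 bases with vehicle (chr2:11640104-11656281, rank 74 of 9681), covering the promoter shown above and 30.3% and 26.7% of the gene. A second Il2ra peak, 46300 bases past the start, was listed without glutamine only. Il6st had a promoter peak of 11478 bases without glutamine (chr13:112463662-112475139) and peaks of 6127 and 4214 bases with vehicle. At Il12rb2 the promoter peak spanned 6881 bases without glutamine (chr6:67372512-67379392) and 4544 bases with vehicle (chr6:67373903-67378446), and the vehicle list held another peak 25853 bases into the gene.

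H3K27me3, a mark of repressed chromatin, stood at 0 of the 10 promoters in all 4 lists, against 11% of genes tested with CB-839, 3.74% with DON, 7.2% without glutamine and 10.6% with vehicle. The lists held 12417, 3533, 8795 and 13556 peaks. The single H3K27me3 peak in the body of any of the 10 genes was at Il18r1 in the CB-839 list (chr1:40472658-40474676, 7106 bases from the start, rank 8124 of 12417 by the authors' signal). Il18r1 thus had no listed H3K27ac peak and no listed promoter H3K27me3 peak in any condition at 48 h.

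**Figure D5:**
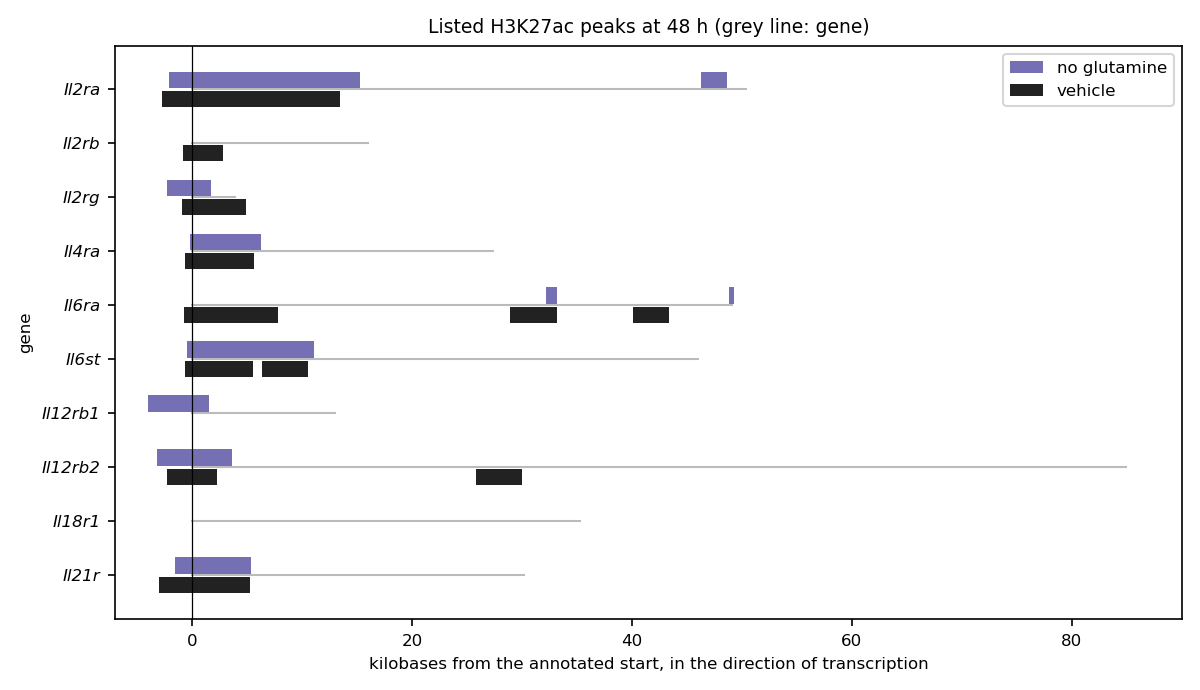
H3K27ac peaks listed at 48 h for each gene, as distance in kilobases from the annotated start in the direction of transcription; the upper bar of each gene is without glutamine, the lower with vehicle, and grey lines are gene lengths. The CB-839 and DON lists held no peak at these genes. The promoter peak of Il2ra, 17382 and 16178 bases long, is the broadest, and Il18r1 has none.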

How the data were processed

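RNA-seq covered 52 libraries and CUT&RUN 20. The deposited counts are raw whole-number read counts per gene from featureCounts 2.0.1 (GENCODE M25, mm10), paired and, per the file headers, with no strand option. The deposited peak lists are merged peaks of 2 replicates at an IDR of 0.05, with a score, a signal and a −log10 IDR per peak, per the file headers and layout. The submitters' processing notes also name FastQC, STAR, Bowtie2, MACS2 and deepTools, with versions not given in the sources used here.

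Counts were fitted in R 4.3.3 with edgeR 4.0.16 (quasi-likelihood test, filterByExpr, TMM, Benjamini-Hochberg over all genes, adjusted p under 0.05). The 16 libraries of a time, or unstimulated with vehicle, shared a fit, and 32 libraries the fit of changes between 24 h and 48 h. Altogether 26 comparisons were made. Printed CPM were scaled by TMM over all 52 libraries, so a level difference can depart from a fitted fold change. Il2rg at 48 h averaged 148 CPM with DON and 158 CPM with vehicle, beside a fitted log2 difference of 0.01. Statements that libraries overlap or not rest on the printed CPM. Each fit was tested in 1 run, for 1 comparison, on counts simulated with its own dispersions. Of genes changed by 1 on the log2 scale, 86% to 98% were called. Neither smaller changes nor correlation between same-letter libraries were simulated, so the runs do not give the recovery of smaller differences. False calls were 2.63% to 8.76% of all calls. They were 8.76% for CB-839 against vehicle at 48 h and 6.06% for the CB-839 change between times. For vehicle at 4 h against unstimulated they were 5.39%. All of these lay above the threshold of 0.05. DESeq2 1.42.0 and other settings were alternatives. Promoter peaks overlapped the 1000 bases either side of an annotated start.

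The members and gene lists were chosen with earlier results of these data known. All 10 genes are named in each comparison, other lists by counts and up to 4 genes with the smallest adjusted p, and other genes named for comparison after their values were seen. Same-letter libraries deviated together, with each correlation over 0.1, in 5 of 23 comparisons (CB-839 against vehicle at 4 h, 0.568 to 0.672, and at 24 h, 0.588 to 0.758, among them); what libraries of 1 letter have in common is not stated.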

Additional observations from a re-analysis of the deposited data

Results flagged for a closer look

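In 12 of 130 groups of 4 libraries, 1 library stood far from the other 3, where chance gives about 1 in 20. The flags are not all independent. At 24 h replicate D was the lowest of 4 for Il12rb2 and Il21r in all 4 conditions, and the highest for Il6ra. The reported fits held no term for the letter. Il2rg without glutamine at 48 h was 171.2 CPM in replicate B, against 179.8 to 181.3 in the others. Il4ra with DON at 48 h was 125.6 CPM in replicate C, against 141.7 to 143.6. Il6ra with vehicle at 24 h was 16.07 CPM in replicate D, against 12.89 to 13.31. Il6st was 217.8 CPM in replicate D without glutamine at 4 h, against 176.3 to 182.9, and 44.06 CPM in replicate C with vehicle at 24 h, against 47.62 to 47.63.

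Il12rb1 was 280.0 CPM in CB-839 replicate B at 4 h, against 206.5 to 214.6, and 179.9 CPM in replicate A without glutamine at 4 h, against 201 to 204.5. Il12rb2 with DON was 89.06 CPM in replicate D at 24 h, against 107.8 to 109.9, and 58.76 CPM in replicate A at 48 h, against 65.04 to 65.31. Il21r was 220.5 CPM in replicate D without glutamine at 24 h, against 249 to 254.1, 131 CPM in replicate D with vehicle at 24 h, against 145.8 to 148, and 266.9 CPM in replicate D without glutamine at 48 h, against 257 to 258.1.

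Effects over vehicle differed between 48 h and 24 h in 18 of 30 tests (edgeR, log2 difference of 48 h minus 24 h). With CB-839 the differences were 0.44 for Il2rb (adjusted p = 0.00145), 0.56 for Il6st (0.000411) and 0.75 for Il12rb2 (0.0266). With DON they were −1.59 for Il2ra (1.60e-14), 0.28 for Il2rg (0.000253), 0.84 for Il6ra (0.000127), 1.33 for Il6st (8.25e-13), −0.49 for Il12rb1 (0.000239), −0.49 for Il12rb2 (0.0479) and −1.60 for Il18r1 (7.66e-06). Without glutamine they were −0.89 for Il2ra (2.59e-09), −0.40 for Il2rb (0.000338), −0.31 for Il2rg (0.000107), −0.72 for Il4ra (8.80e-08), 0.70 for Il6st (3.90e-07), −0.69 for Il12rb1 (2.04e-06), 1.08 for Il18r1 (0.00155) and 0.27 for Il21r (0.0351), the last lost on leaving out any of 8 libraries, with RLE scaling and with DESeq2; that of Il2rg was lost without the low-count filter.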

How the results depend on the processing

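No log2 fold change that was called in either of 2 fits reversed between them. Of 260 tests, the side of the threshold was kept, and the direction of each call, in 256 with RLE scaling, 239 with library totals, 249 without the low-count filter and 245 with the replicate block, in 249 of 257 with DESeq2, in 220 of 230 with only the 8 libraries compared, and in 2216 of 2320 fits without 1 library; among these, 2, 7, 3, 3, 1, 2 and 42 values that were not called changed sign. The number of the 10 genes called for CB-839 against vehicle at 24 h, 2, became 1 without the filter, 6 with the replicate block, 5 with DESeq2, 0 with only the 8 libraries compared and 0 to 1 without 1 library. For DON against CB-839 at 24 h, 8 became 5 with library totals, and for CB-839 against vehicle at 48 h, 6 became 2 with only the 8 libraries compared. Promoter H3K27ac peaks fell to 0 without glutamine and 1 with vehicle when 50% of the peak had to lie in the window, and kept their counts with 2500 bases either side; at an IDR of at most 0.01 the CB-839, no-glutamine and vehicle H3K27ac lists held no peak. The cause was not tested.

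Counts over all genes moved by over 1.5 times for CB-839 against vehicle at 4 h (2282, and 1465 without the filter), at 24 h (806, and 1840 with the block, 1295 with DESeq2 and 441 with 8 libraries) and at 48 h (2464, and 1054 with 8 libraries), for the CB-839 change between times (604, and 1007 with DESeq2), and for DON at 4 h (0, and 8 with library totals, 27 with DESeq2 and 25 with 8 libraries). Leaving out 1 library moved them as far for CB-839 against vehicle at 24 h (530, 453 and 520 without CB-839 replicates A, C and D, and 485 and 398 without vehicle replicates A and B), at 48 h (1523 without CB-839 replicate A) and for the CB-839 change between times (356 without CB-839 replicate D and 341 and 368 without vehicle replicates A and B of 24 h, 355 without CB-839 replicate A and 1000 without vehicle replicate C of 48 h). Library totals shifted the median of all genes by −0.24, −0.30 and −0.28 at 4, 24 and 48 h of vehicle culture against unstimulated, by 0.19 with DON at 24 h and at 48 h, and by 0.10 without glutamine at both times. The share of calls that were higher against CB-839 was then 68.3%, against 48.5%, and 62.7%, against 50.7%, with DON at 24 and 48 h, and 60.3%, against 50.15%, and 62.7%, against 52.1%, without glutamine. Where letters do not pair libraries, the block ended the calls of Il2ra with CB-839 (adjusted p = 0.0749) and of Il12rb2 without glutamine (0.0593) at 48 h. With 4 libraries a group, small differences can go uncalled.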
